A study of Mus musculus with 6 samples.

Results

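Cortical projection neuron identity factors are transcription factors that mark, and in several cases specify, the excitatory neurons whose axons leave the cerebral cortex or cross between its hemispheres. The 9 genes described here are Bcl11b, Fezf2, Tbr1, Foxp2, Cux1, Cux2, Rorb, Pou3f2 and Neurod2, taken as the rows of the expression table whose GENCODE symbol is on that list, 9 of 55416 genes. All 9 were measured in every library and all 9 passed the filter on low values. RNA was sequenced from wild-type (WT) mouse primary neurons, which are neurons isolated from brain and kept in culture, infected with an adeno-associated virus (AAV) that expresses its cargo from the synapsin promoter (hsyn), active in neurons. The groups are miR-9-3p AAV (3 libraries) and control AAV (3 libraries), the control being named a scramble vector in the titles and treatment labels and an mCherry vector in the extraction protocol. The sources used here give no brain region, age of the animals or time after infection. Nothing in the labels tells separate cultures or animals from repeat libraries, and a p-value therefore reflects only variation among these libraries, which may be technical.

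In the developing cortex, newborn excitatory neurons settle into layers and choose a target. Fezf2 and Bcl11b drive the corticospinal and other subcerebral fates of deep-layer neurons, Tbr1 sets the corticothalamic fate, and Cux1, Cux2 and Pou3f2 belong to the upper-layer neurons that project within the cortex. These factors repress one another or act in sequence, so their relative levels are commonly read as the mix of projection neuron types. miR-9 is a microRNA abundant in neural progenitors and neurons whose hairpin yields a 5p and a 3p strand, each of which pairs through its seed with 3′ untranslated regions (UTRs) of messenger RNAs.

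The seeds of both strands were searched in the 3′ UTRs of the 9 factors because the virus carries one of them. The mature sequences are from RefSeq (GRCm38.p6), 5′ to 3′, and capitals mark the seed, bases 2 to 8.
miR-9-3p: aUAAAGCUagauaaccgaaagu
miR-9-5p: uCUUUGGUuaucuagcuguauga

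Letters searched were AGCTTTA and GCTTTAA for miR-9-3p and ACCAAAG and CCAAAGA for miR-9-5p, on the transcript strand, in the longest 3′ UTR that GENCODE M21 annotates on GRCm38 (mm10). AGCTTTAA, which holds both miR-9-3p words overlapping, is the 8-base match. Of the 9 factors, 4 held a miR-9-3p match (Bcl11b, Cux1, Foxp2 and Pou3f2), where 20.5% of the 12194 tested genes with such a UTR did. An 8-base match was found in 3 of them, against 4.8% of tested genes. A miR-9-5p match was found in 4 factors (Cux1, Rorb, Foxp2 and Pou3f2), against 23.4% of tested genes, and Fezf2, Tbr1, Cux2 and Neurod2 held neither. The best miR-9-3p matches of Bcl11b, Cux1, Foxp2 and Pou3f2 are printed with the bases around them, capitals marking the match.
Bcl11b, chr12:107911584-107911613, minus strand: gtaaagccaagtAGCTTTAAgataataaaa
Cux1, chr5:136273948-136273977, minus strand: acattgatccatAGCTTTAActgactctgg
Cux1, chr5:136269312-136269341, minus strand: aaagtgacatttAGCTTTAAcaagacattt
Pou3f2, chr4:22484358-22484387, minus strand: ctggttttctgtAGCTTTAAatgagtaggt
Foxp2, chr6:15440721-15440750, plus strand: aagaaaaatgttGCTTTAAtgcatttcatg

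All 5 lie in 3′ UTRs. Cux1 held 6 miR-9-3p matches in a 3′ UTR of 8376 bases, the longest of the set, while the 3′ UTRs without any match had 402 bases in Fezf2, 1676 in Tbr1, 1770 in Neurod2 and 4229 in Cux2. Rorb, with 7275 bases, held no miR-9-3p match. The shares over tested genes were not matched for 3′ UTR length. In the shortest annotated 3′ UTR of each gene only Pou3f2 held a miR-9-3p match, and 11.5% of tested genes did. Pou3f2 has only 1 such UTR, of 4014 bases, so its match could not be lost in this search. A match is a description of these letters, and binding was not measured. For miR-9-5p, Cux1, Rorb and Foxp2 held 2 matches each and Pou3f2 held 1. The matches to ACCAAAG, which pairs with the whole seed, are printed; those of Cux1 and the other one of Rorb are to CCAAAGA.
Rorb, chr19:18932619-18932648, minus strand: gcttcctgcctgACCAAAGcacaacgacag
Pou3f2, chr4:22485951-22485980, minus strand: ttggctcttttcACCAAAGcgaaatgattg
Foxp2, chr6:15438879-15438908, plus strand: ctacagctgcaaACCAAAGccaactctaac
Foxp2, chr6:15439569-15439598, plus strand: attttcagtcaaACCAAAGttacatataat

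**Figure D1:**
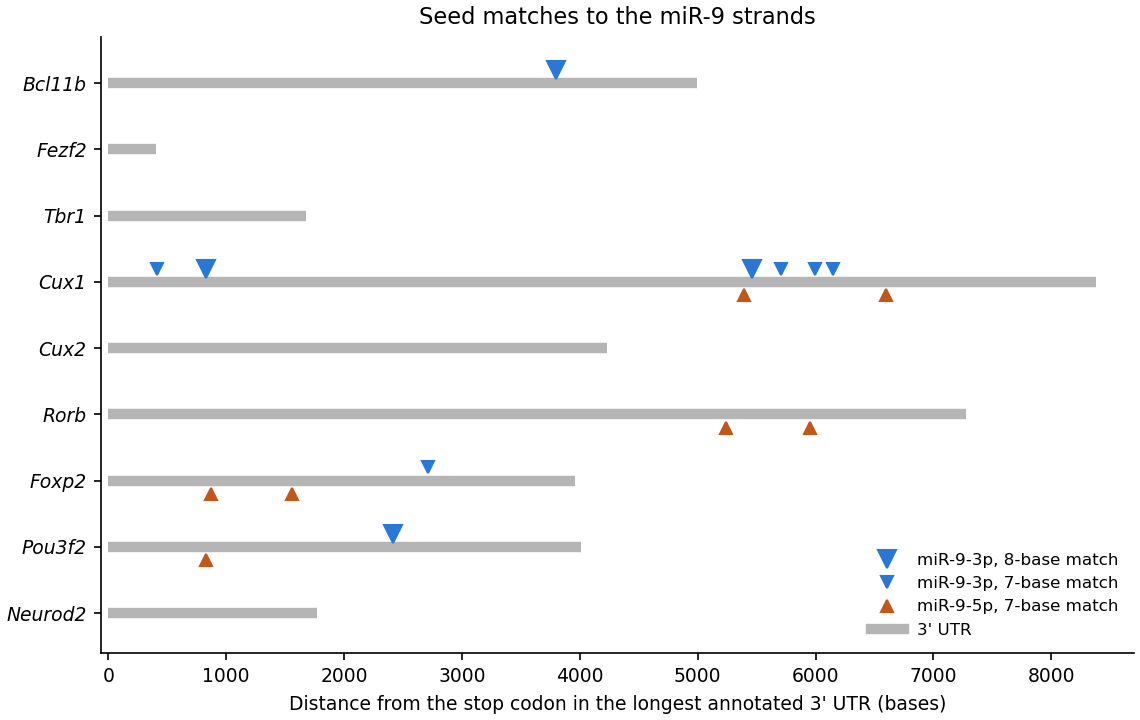
Positions of seed matches along the longest annotated 3′ UTR of each factor, with distance from the stop codon in bases on the horizontal axis and 1 grey bar per gene. Large blue triangles are 8-base and small ones 7-base miR-9-3p matches, orange triangles are 7-base miR-9-5p matches; Cux1 carries 6 of the 9 miR-9-3p matches, and Fezf2, Tbr1, Cux2 and Neurod2 carry no match.

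The table gives FPKM, fragments scaled to a gene length and library total. The length that gave whole read numbers was that of all annotated exons of a gene together. It was 20024 bases for Cux1 and 16346 for Foxp2, against 3047 for Fezf2, so the order of levels between genes depends on it. Library depth, recovered from the steps between low FPKM values, was 16953252 to 17174919 reads in miR-9-3p AAV and 16001204 to 17936455 reads in control AAV, and a factor was covered by 235 to 3991 reads in a library. All 6 libraries also hold RNA of lung cells. The lung level is the median log2(FPKM + 1) of 10 alveolar type 2 cell genes, relative to the lowest library. Written as a fold, it was 2.36 in miR-9-3p AAV library 1, 1.14 in its library 2 and 1 in its library 3. In the control libraries 1 to 3 it was 2.07, 2.56 and 7.97. The added 1 shrinks the folds of low genes, so these are not folds of FPKM. FPKM is a share of a library, and the mean log2 level of 16 pan-neuronal genes was 6.19, 6.30 and 6.35 in miR-9-3p AAV and 6.19, 6.09 and 5.75 in control AAV. Control AAV library 3, highest in lung RNA and lowest in pan-neuronal RNA, was the lowest of the 6 libraries for 7 of the 9 factors, against 23.7% of tested genes. By the airway gene Bpifa1, at 0.939%, 0.966% and 0.959% of Scgb1a1, miR-9-3p AAV library 1 and control AAV libraries 2 and 3 form one lung set (set A), and the remaining libraries, at 0.0293% or 0, the other (set B). In bulk RNA, fewer cells of a type and less RNA per cell cannot be told apart.

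The levels of the factors spanned a wide range in these cultures. Bcl11b and Neurod2 were highest, at 26.0 ± 3.38 and 24.9 ± 4.66 FPKM with miR-9-3p and at 19.3 ± 2.59 and 17.0 ± 5.52 FPKM with the control (SD, n = 3 each here and below). Fezf2 and Tbr1 came next, at 15.6 ± 4.23 and 13.8 ± 2.11 FPKM with miR-9-3p and at 12.8 ± 3.54 and 10.8 ± 1.54 FPKM with the control. These 4 stood above the upper-layer factors Pou3f2, Cux2 and Cux1, which averaged between 6.09 and 7.41 FPKM with miR-9-3p and between 5.26 and 5.48 FPKM with the control. Rorb followed at 2.94 ± 0.243 FPKM with miR-9-3p and 3.44 ± 0.150 FPKM with the control, and Foxp2 was lowest in all 6 libraries. The order is one per exon length. By reads in a library, Cux1 (1764 to 2087) stood above Fezf2 (487 to 965) and Tbr1 (878 to 1421).

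Not every step in that order exceeded the spread. In miR-9-3p AAV the ranges of Bcl11b and Neurod2, of Fezf2 and Tbr1, of Pou3f2 and Cux2, and of Cux2 and Cux1 overlapped, while Pou3f2 and Cux1, Neurod2 and Fezf2, Tbr1 and Pou3f2, Cux1 and Rorb, and Rorb and Foxp2 lay apart. In control AAV, Neurod2 and Fezf2 also overlapped in range, although Neurod2 was above Fezf2 in 3 of 3 libraries. The breaks between Tbr1 and Pou3f2, between Rorb and the Cux genes, and between Rorb and Foxp2 held in both groups.

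**Figure D2:**
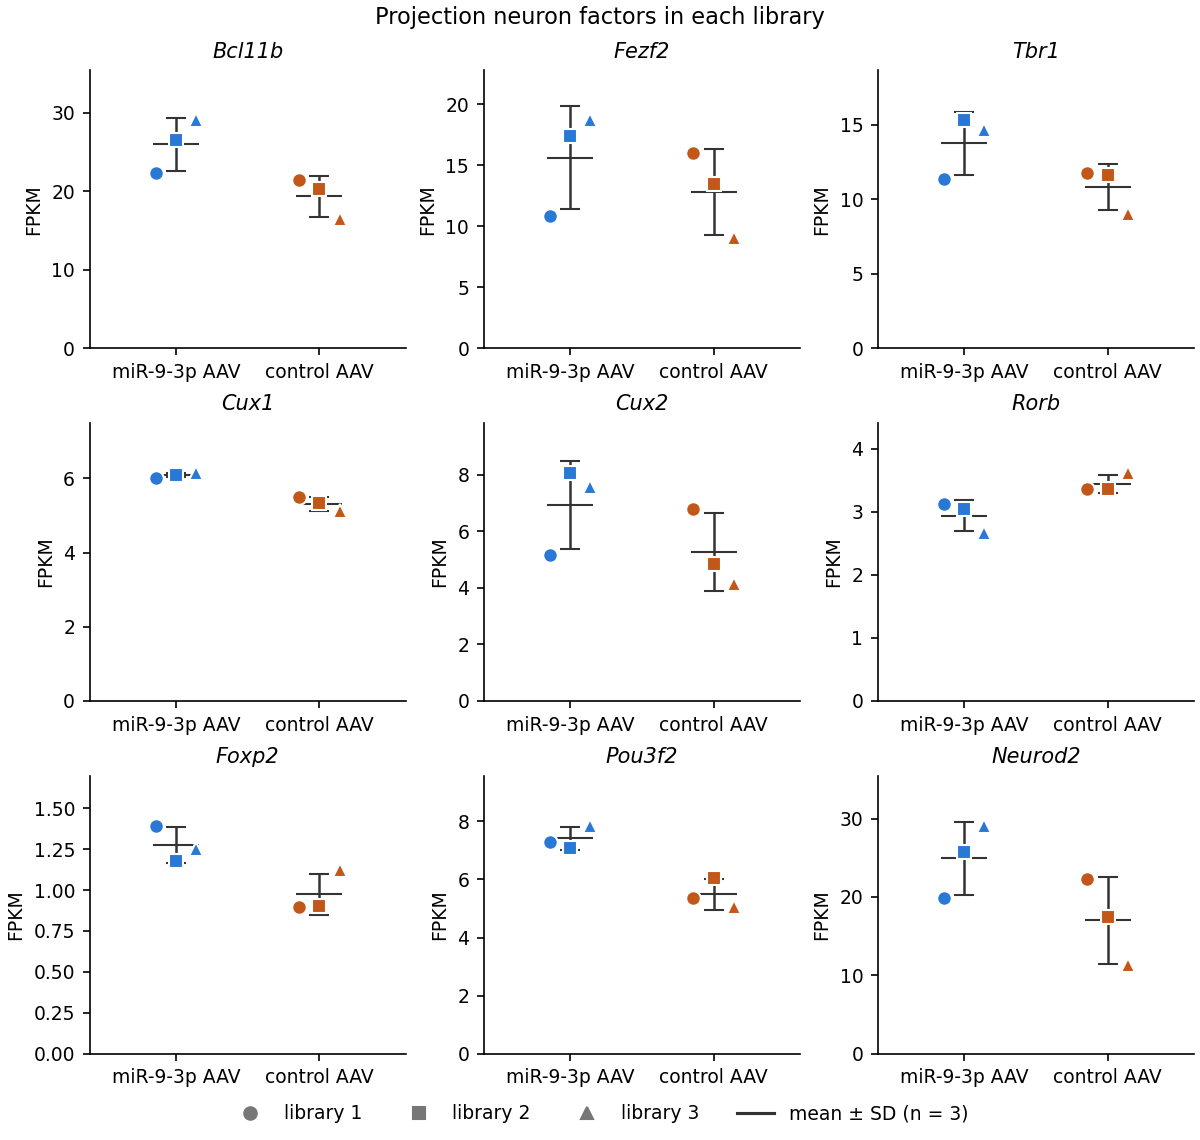
FPKM of each factor in each library, miR-9-3p AAV (blue) left of control AAV (orange), with 1 point per library and lines at the mean ± SD (n = 3). Bcl11b, Cux1, Foxp2 and Pou3f2 lie higher and Rorb lower in miR-9-3p AAV with no overlap of the groups, and the other 4 factors overlap.

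Between the vectors, no factor passed the test. With limma on log2(FPKM + 1), which understates fold changes of low genes, 0 of 9 were higher and 0 lower at a Benjamini-Hochberg adjusted p under 0.05, where 3.89% of the 14229 tested genes were higher, 2.4% lower and 6.29% either. An unadjusted p under 0.05 was reached by 2 factors, Bcl11b and Pou3f2, against 26.8% of tested genes, and voom on the recovered reads also called 0. Mean levels were higher in miR-9-3p AAV for 8 factors and lower for Rorb, with a median log2 fold change of 0.32 beside -0.02 over all tested genes, of which 47.3% were above 0. The groups did not overlap for 4 factors that were higher (18.2% of tested genes) and for 1 that was lower (16.7%). These 4 higher factors are the same 4 that hold a miR-9-3p match, and the lower one, Rorb, holds miR-9-5p matches only. Of the 4, Cux1 and Foxp2 turn below 0 under other scalings, given below. Foxp2 also entered the test mainly through miR-9-3p AAV, the group in which it is higher. With 9 genes this is a description of the set, and it was not tested. Weighting the libraries by their quality called 7 factors higher, against 22.4% of tested genes.

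Of the corticofugal factors, Bcl11b (Ctip2), a zinc-finger factor of subcerebral projection neurons that is also expressed in striatal neurons and some interneurons, had the largest log2 fold change and no overlap of the groups. Bcl11b (chromosome 12, 107910403 to 108003602, minus strand) was at 22.3, 26.5 and 29.0 FPKM with miR-9-3p, in the order of libraries 1 to 3 here and below, and at 21.4, 20.2 and 16.4 FPKM with the control. All miR-9-3p values lay above all control values, although miR-9-3p library 1 and control library 1 were close. The log2 fold change was 0.41 (SE 0.14, 95% interval 0.07 to 0.74; limma adjusted p = 0.129). Within lung sets A and B it was 0.28 and 0.36. Leaving out miR-9-3p 1 and control 3, the libraries with the most lung RNA in their groups, it was 0.40 and was called (adjusted p = 0.0487; 5.53% of tested genes were then called higher). In the fit that includes lung level it was 0.13 (adjusted p = 0.266), and with scaling to pan-neuronal genes it was 0.14 (adjusted p = 0.359).

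Fezf2, the zinc-finger factor upstream of Bcl11b in the subcerebral fate, overlapped between the groups. Fezf2 (chromosome 14, 12342094 to 12348189, minus strand) was at 10.8, 17.4 and 18.7 FPKM with miR-9-3p and at 16.0, 13.5 and 9.01 FPKM with the control. Its lowest libraries were control 3 and miR-9-3p 1, and control 1 lay above miR-9-3p 1. The log2 fold change of 0.27 (SE 0.27, 95% interval -0.37 to 0.90; adjusted p = 0.551) has an interval that covers differences in either direction. It was -0.03 within lung set A and 0.16 within set B, and -0.31 (adjusted p = 0.0943) in the fit that includes lung level.

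Tbr1, a T-box factor of corticothalamic and early-born neurons that represses Fezf2 and Bcl11b in them, followed the same libraries. Tbr1 (chromosome 2, 61802930 to 61814114, plus strand) was at 11.4, 15.3 and 14.6 FPKM with miR-9-3p and at 11.7, 11.6 and 9.02 FPKM with the control. Only miR-9-3p library 1 reached into the control range, and control library 3 stood below the rest. Its log2 fold change was 0.32 (SE 0.15, 95% interval -0.04 to 0.68; adjusted p = 0.226). In the fit that includes lung level it was 0.03, and without miR-9-3p 1 and control 3 it was 0.33 (adjusted p = 0.0544). Leaving out control library 3 alone gave 0.21.

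Foxp2, a forkhead factor of corticothalamic neurons that striatal neurons and other brain cells also express, was near the filter of 1 FPKM. Foxp2 (chromosome 6, 14901349 to 15441977, plus strand) was at 1.39, 1.18 and 1.25 FPKM with miR-9-3p and at 0.899, 0.900 and 1.12 FPKM with the control. The groups did not overlap, but Foxp2 reached 1 FPKM in the miR-9-3p libraries and in 1 control library only, so it entered the test mainly through the group in which it is higher. Its log2 fold change was 0.21 (SE 0.12, 95% interval -0.08 to 0.49; adjusted p = 0.31), and 0.25 and 0.22 within lung sets A and B. Unlike Bcl11b, Fezf2 and Tbr1 it was not low in control library 3, the highest of its group.

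Among the upper-layer factors, Pou3f2 (Brn2), a POU-domain factor of late progenitors and upper-layer neurons, came closest to a call. Pou3f2 (chromosome 4, 22482780 to 22488366, minus strand) was at 7.31, 7.08 and 7.85 FPKM with miR-9-3p and at 5.35, 6.06 and 5.04 FPKM with the control. Every miR-9-3p library stood above every control library. Its log2 fold change was 0.38 (SE 0.09, 95% interval 0.15 to 0.60; adjusted p = 0.0641). The difference was as large within the lung sets (0.35 and 0.41), and with the set as a batch term it was 0.38 and was called (adjusted p = 0.0469; 9.91% of tested genes were then called higher). With scaling to pan-neuronal genes it was 0.11 (adjusted p = 0.598).

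Cux1, a homeodomain factor of upper-layer neurons with broad expression outside the brain, varied least for its level. Cux1 (chromosome 5, 136248135 to 136567490, minus strand) was at 6.02, 6.09 and 6.14 FPKM with miR-9-3p and at 5.51, 5.32 and 5.12 FPKM with the control. The groups did not overlap, and the spread within each was small, yet the log2 fold change of 0.17 (SE 0.07, 95% interval -0.01 to 0.35; adjusted p = 0.211) did not pass. It was 0.17 and 0.13 within lung sets A and B. The locus also encodes the Golgi protein CASP, and gene-level FPKM does not separate it from the homeodomain transcripts. The value turned to -0.08 when each library's trend on exon length was removed. That of Foxp2 was then -0.002 (95% interval -0.27 to 0.27).

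Cux2, the paralog with expression narrower to upper-layer neurons and some interneurons, overlapped between the groups. Cux2 (chromosome 5, 121856366 to 122050102, minus strand) was at 5.17, 8.07 and 7.58 FPKM with miR-9-3p and at 6.80, 4.85 and 4.14 FPKM with the control. As for Fezf2, miR-9-3p library 1 lay below control library 1. On the log2 scale the fold change was 0.34 (SE 0.21, 95% interval -0.16 to 0.85; adjusted p = 0.327). It was 0.17 and 0.18 within lung sets A and B, and -0.05 in the fit that includes lung level. It was 0.21 without control library 3, 0.51 without control library 1 and 0.52 without miR-9-3p library 1. Cux2 made up 52.8% ± 5.79 of the summed FPKM of both Cux genes in miR-9-3p AAV and 49.2% ± 5.45 in control AAV, a difference smaller than the spread.

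Rorb, a nuclear receptor that marks the thalamus-recipient layer of sensory cortex, was the one factor with lower values in miR-9-3p AAV. Rorb (chromosome 19, 18930605 to 19111196, minus strand) was at 3.12, 3.04 and 2.66 FPKM with miR-9-3p and at 3.35, 3.35 and 3.61 FPKM with the control. The groups did not overlap, and the ordering of the libraries ran against that of most other factors: control library 3 was highest and miR-9-3p library 3 lowest. The log2 fold change was -0.17 (SE 0.09, 95% interval -0.40 to 0.05; adjusted p = 0.27), and -0.12 and -0.18 within lung sets A and B.

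Neurod2, a basic helix-loop-helix factor of postmitotic excitatory neurons of all cortical layers, had the largest fold change and the largest SD of the 9 factors. Neurod2 (chromosome 11, 98325415 to 98329648, minus strand) was at 19.9, 25.8 and 29.1 FPKM with miR-9-3p and at 22.3, 17.4 and 11.3 FPKM with the control. Control library 1 stood above miR-9-3p library 1, and control library 3 was far below the rest. On the log2 scale the fold change was 0.56 (SE 0.26, 95% interval -0.06 to 1.17; adjusted p = 0.219). In the fit that includes lung level it was -0.004, and it was 0.47 and 0.28 within lung sets A and B.

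**Figure D3:**
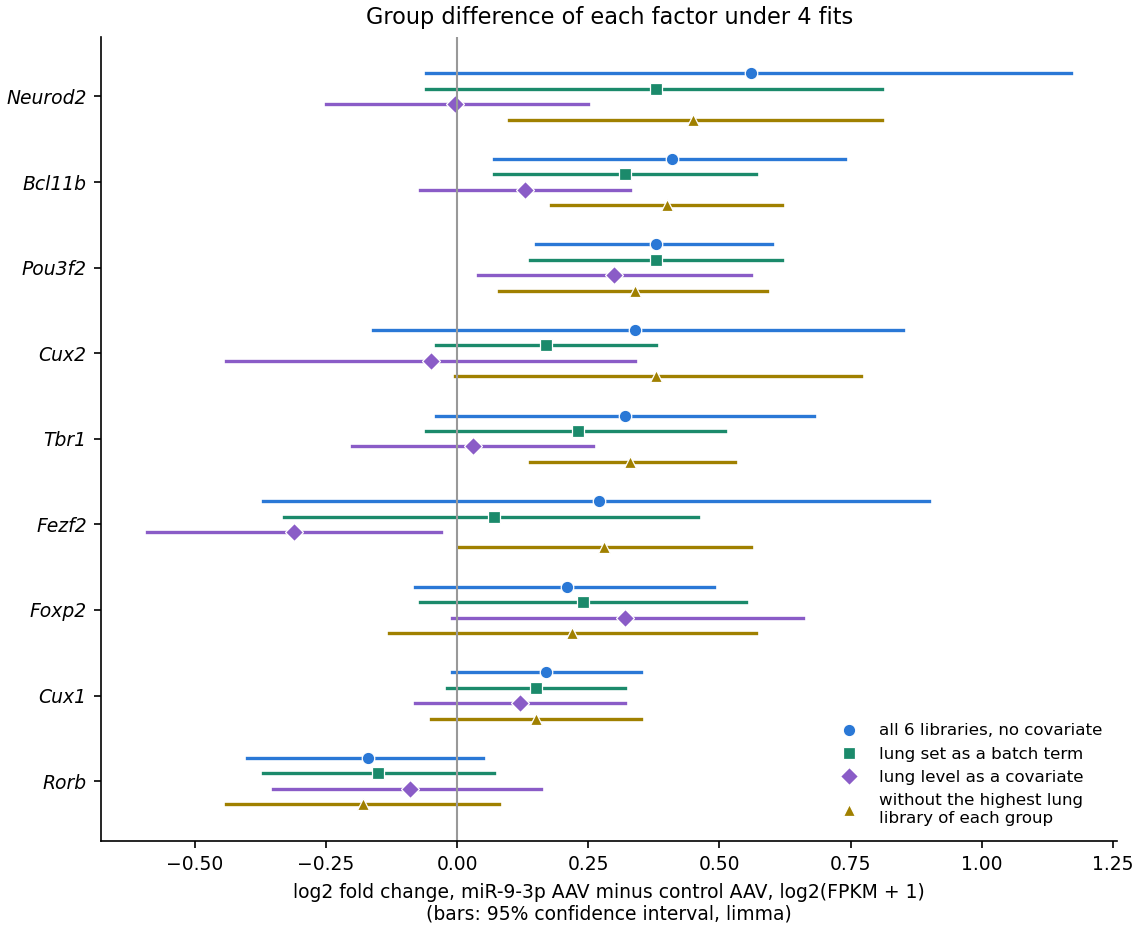
Log2 fold change of each factor, miR-9-3p AAV minus control AAV on the log2(FPKM + 1) scale, with 95% limma confidence intervals under 4 fits, the factors sorted from Neurod2 (0.56) to Rorb (-0.17). Pou3f2 kept values between 0.30 and 0.38 in the 4 fits shown and 0.11 with pan-neuronal scaling, which is not drawn, while Neurod2, Fezf2, Cux2 and Tbr1 moved to 0.03 or less once lung level was a covariate.

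The factors differed in how they tracked lung RNA. When lung level entered the fit as a covariate, the median over the 9 was 0.03, with 5 above and 4 below 0, beside -0.04 over all tested genes. The values that changed most were those of Fezf2, Neurod2, Cux2, Tbr1 and Bcl11b (0.13 for Bcl11b), whereas Pou3f2 stood at 0.30, Foxp2 at 0.32, Cux1 at 0.12 and Rorb at -0.09. With 1 value per library, the covariate and the vector overlap in these 6 libraries, since both miR-9-3p libraries 2 and 3 lie below every control library in lung level. Within the lung sets, which compare 1 library of a group with 2 of the other, 7 of 9 factors were positive in set A (median 0.17) and 8 of 9 in set B (median 0.22). Scaling to the pan-neuronal genes was an alternative added after seeing the data. It subtracted each library's mean pan-neuronal level, centred over the libraries, from all its log2(FPKM + 1) values. It is not a division of FPKM, because the subtraction came after 1 was added. Every log2 fold change therefore fell by the same amount. The median moved from -0.02 to -0.29 over all tested genes and from 0.32 to 0.05 over the factors. Fezf2 (-0.003), Cux1 (-0.10) and Foxp2 (-0.06), whose values had been the smallest above 0, were then below 0. This follows from the common shift, so the sign of these 3 depends on where 0 is set. By the same shift Bcl11b was at 0.14, Pou3f2 at 0.11, Tbr1 at 0.05, Cux2 at 0.08, Neurod2 at 0.29 and Rorb at -0.44.

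**Figure D4:**
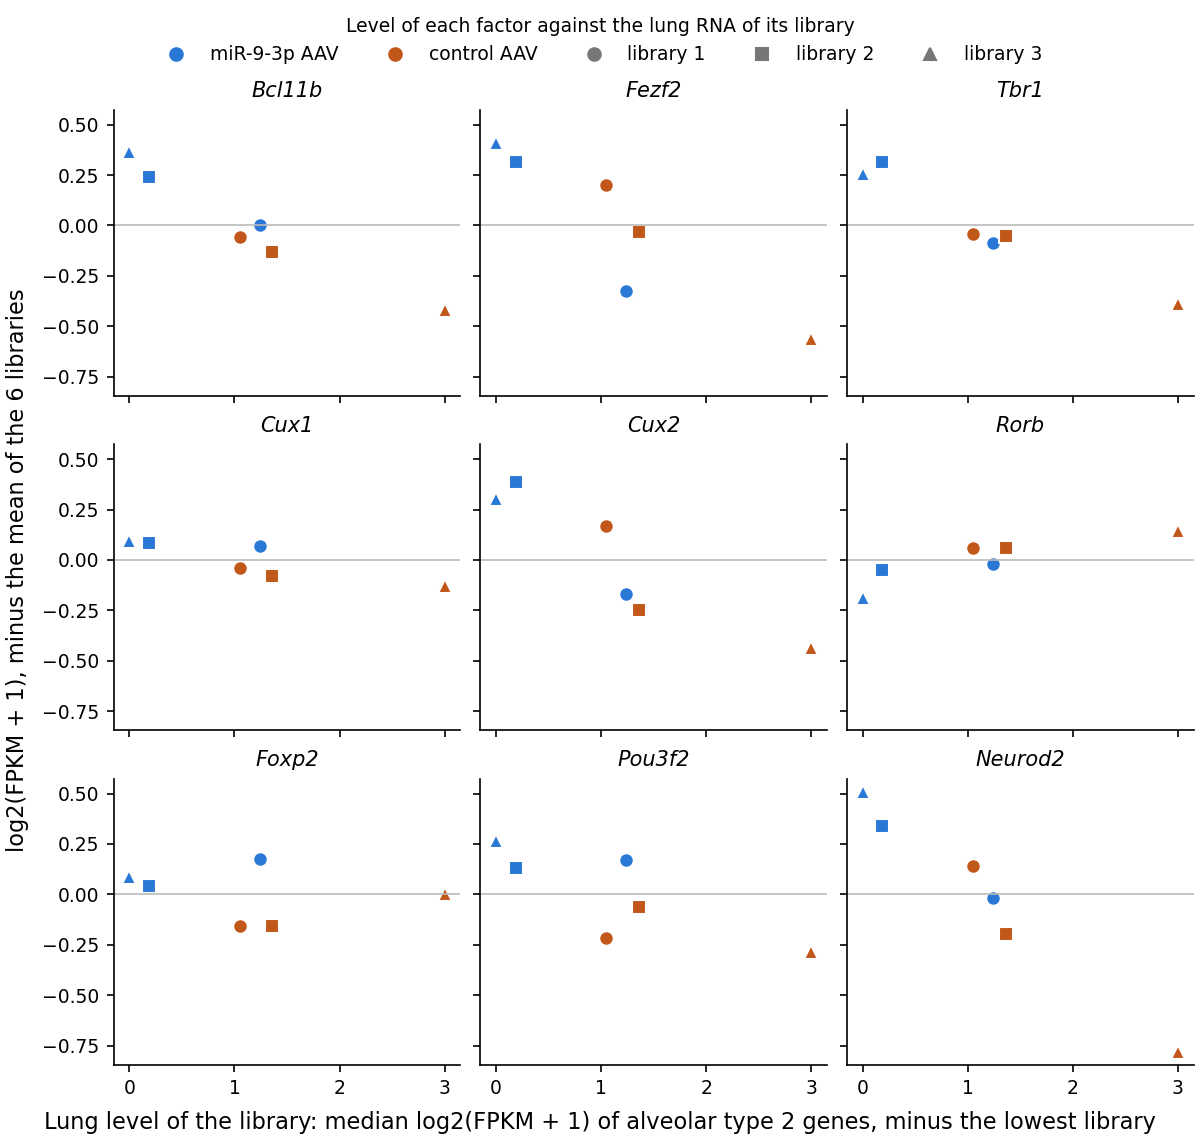
Level of each factor as log2(FPKM + 1) minus its mean over the 6 libraries, against the lung level of the library on a log2 scale, 1 point per library. Neurod2, Fezf2, Cux2, Bcl11b, Tbr1, Pou3f2 and Cux1 are lowest in control AAV library 3, the library with the most lung RNA, while Foxp2 is lowest in control AAV library 1 and Rorb in miR-9-3p AAV library 3.

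Over the 6 libraries, the levels of several factors moved together. Pearson r of log2(FPKM + 1) was 0.96 for Bcl11b with Tbr1 and with Neurod2, 0.93 for Fezf2 with Cux2 and 0.93 for Cux2 with Neurod2 (n = 6 libraries that share their lung RNA and depth, described without a test). Cux1 and Pou3f2 reached 0.93, and Rorb was negative with all other factors, from -0.95 with Bcl11b to -0.52 with Foxp2. For Foxp2 r was 0.38 with Bcl11b, 0.20 with Tbr1 and -0.14 with Fezf2, and 0.67 with Cux1 and 0.68 with Pou3f2.

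By the same measure, the protein-coding genes most like each factor were Bean1 (0.9967) and Ppm1h (0.996) for Bcl11b, and Cdr2l (0.9985) and Gpr27 (0.9972) for Fezf2. Those most like Tbr1 were Terf2ip (0.9971) and Rab36 (0.996), those for Foxp2 Gm38393 (0.9928) and Rlf (0.992), and those for Pou3f2 Ss18l1 (0.9963) and Zscan18 (0.9962). For Cux1 they were Shisal1 (0.9974) and Hspa12a (0.9968), and for Cux2 P4htm (0.9994) and B3galt4 (0.9962). For Rorb they were Dstn (0.9965) and Kdelr3 (0.9953), and for Neurod2 Syt7 (0.9993) and 1500009C09Rik (0.9992). All rest on n = 6 libraries, and being the highest among all tested protein-coding genes, such values are near 1 by selection.

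Paralogs of the factors were measured beside them. Of 17 paralogs 12 were tested and 0 were called by limma (1 at an unadjusted p under 0.05) and 0 by voom, with a median log2 fold change of 0.15. Foxp1, a forkhead factor of several projection neuron types, was at 6.31, 6.05 and 5.79 FPKM with miR-9-3p and at 4.38, 5.06 and 5.19 FPKM with the control (log2 fold change 0.26, adjusted p = 0.128). Bcl11a (log2 fold change 0.26) and Satb1 (0.14) also did not overlap between the groups and were higher in miR-9-3p AAV. The other tested paralogs overlapped, and among them Pou3f1 had a log2 fold change of 0.57, Neurod6 0.27, Neurod1 0.15, Pou3f3 and Eomes 0.12, Pou3f4 -0.0004, Foxp4 -0.19 and Rora -0.20.

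Within families, Pou3f2 was a minor member. It made up 15.2% ± 2.39 of the summed FPKM of Pou3f1 to Pou3f4 in miR-9-3p AAV and 13.0% ± 1.4 in control AAV, and Pou3f3 made up 54.8% ± 1.17 in miR-9-3p AAV and 58.5% ± 0.833 in control AAV. The share of Pou3f3 was lower in miR-9-3p AAV without overlap, as was that of Pou3f4 (15.2% ± 1.46 in miR-9-3p AAV, 17.7% ± 0.299 in control AAV). Bcl11b held 73.5% ± 1.89 of the Bcl11 pair in miR-9-3p AAV and 71.7% ± 1.59 in control AAV, and Neurod2 held 35.7% ± 5.84 of its family in miR-9-3p AAV and 30.8% ± 3.70 in control AAV, behind Neurod6. Foxp2 held 8.11% ± 1.35 of the Foxp family in miR-9-3p AAV and 6.30% ± 1.13 in control AAV. The shares of these factors overlapped between the groups.

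Genes of the same layers and lineage were compared by lists, chosen with earlier results of these data known. Of 22 other deep-layer and corticofugal genes, all tested, 2 were higher and 0 lower, with a median log2 fold change of 0.23. Tle4, a Groucho co-repressor of corticothalamic neurons, was at 16.7, 16.2 and 17.7 FPKM with miR-9-3p and at 11.6, 11.8 and 10.7 FPKM with the control (log2 fold change 0.53, SE 0.08, adjusted p = 0.0264). Ldb2, a LIM-domain-binding cofactor of subcerebral neurons, was at 23.2, 22.7 and 25.6 FPKM with miR-9-3p and at 18.1, 17.3 and 15.4 FPKM with the control (log2 fold change 0.47, SE 0.10, adjusted p = 0.0434). Both genes were lowest of the 6 libraries in control library 3, the library with the most lung RNA, as were 23.7% of tested genes. The groups did not overlap, with higher values in miR-9-3p AAV, for 11 of the 22 (18.2% of tested genes): besides these, Sox5, Crym, Zfpm2, Ntsr1, Foxp1, Hs3st4, Bcl11a, Cdh13 and Grik3. Of the 11, Ntsr1, the neurotensin receptor of corticothalamic neurons, had the largest log2 fold change, 0.82 (SE 0.25, adjusted p = 0.0979), at 10.4, 13.6 and 14.2 FPKM with miR-9-3p and at 9.38, 7.02 and 4.47 FPKM with the control. Igfbp4 (-0.50) and Nfia (-0.17) did not overlap and were lower in miR-9-3p AAV (16.7% of tested genes). Such counts were not particular to deep-layer genes. In lists described below, some of which share genes, 6 of 16 pan-neuronal, 6 of 17 excitatory-lineage and 7 of 11 reported-target genes were higher without overlap. Among cofactors it was 4 of 24, no larger a share than over all tested genes, and Tle4 and Ldb2 are among the 4.

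Of 22 other upper-layer and callosal genes, all tested, 2 were higher and 0 lower, with a median of 0.11. Rasgrf2, an exchange factor for Ras and Rac of upper-layer neurons, was at 9.30, 8.90 and 8.69 FPKM with miR-9-3p and at 6.19, 6.42 and 6.44 FPKM with the control (log2 fold change 0.44, SE 0.07, adjusted p = 0.0307). Unc5d, a netrin receptor family member of migrating upper-layer neurons, was at 9.90, 9.72 and 9.76 FPKM with miR-9-3p and at 6.64, 7.33 and 7.03 FPKM with the control (log2 fold change 0.43, SE 0.08, adjusted p = 0.0323). Values did not overlap for 3 of the 22 that were higher in miR-9-3p AAV (18.2% of tested genes), these and Inhba (0.39). They did not overlap for 2 that were lower (16.7% of tested genes), Cdh20 (-0.30) and Ptn (-0.22). Whether the deep-layer and upper-layer lists differed from each other was not tested.

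Of 22 genes of the excitatory lineage 17 were tested, 4 were higher and 0 lower, with a median of 0.27. These were Sla (log2 fold change 0.66, adjusted p = 0.0207), an adaptor protein gene, Mef2c (0.63, adjusted p = 0.0223), a factor of neuronal maturation, Sox11 (0.47, adjusted p = 0.0338), a factor of young neurons, and Zbtb18 (0.41, adjusted p = 0.0468), a repressor in newborn projection neurons. The remaining 5, Neurod4, Neurog1, Neurog2, Nhlh1 and Nhlh2, factors of progenitors and newborn neurons, were under 1 FPKM in every library. Of 12 genes reported elsewhere as regulated by one of the 9 factors, 11 were tested, 3 were higher and 0 lower, with a median of 0.44. Grin2b, an NMDA receptor subunit gene and a reported Tbr1 target, had a log2 fold change of 0.86 (adjusted p = 0.0212), Mef2c is given above, and Reln, the secreted guide of migrating neurons, had 0.47 (adjusted p = 0.0372). Slc17a7, the vesicular glutamate transporter of cortical neurons, was at 25.3, 36.4 and 36.9 FPKM with miR-9-3p and at 43.9, 34.1 and 21.8 FPKM with the control, with a log2 fold change of 0.02.

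Of 24 cofactor genes, among them subunits of the NuRD deacetylase complex with which Bcl11b associates, 3 were higher and 1 lower, with a median of -0.06. Besides Tle4 and Ldb2, Cask, a scaffold kinase that acts as a coactivator of Tbr1, was higher (log2 fold change 0.40, adjusted p = 0.0438). Hdac1, a catalytic subunit of NuRD, was lower, at 11.5 to 12 FPKM with miR-9-3p and at 14.9 to 16.3 FPKM with the control (log2 fold change -0.38, SE 0.08, adjusted p = 0.0427). With 1 library fewer, when control library 1 or control library 2 was left out, or any 1 of the miR-9-3p libraries, limma called 0 genes of all those tested, with 2739 to 3654 at an unadjusted p under 0.05. Without control library 3, 459 genes of all those tested were higher and 287 lower.

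**Figure D5:**
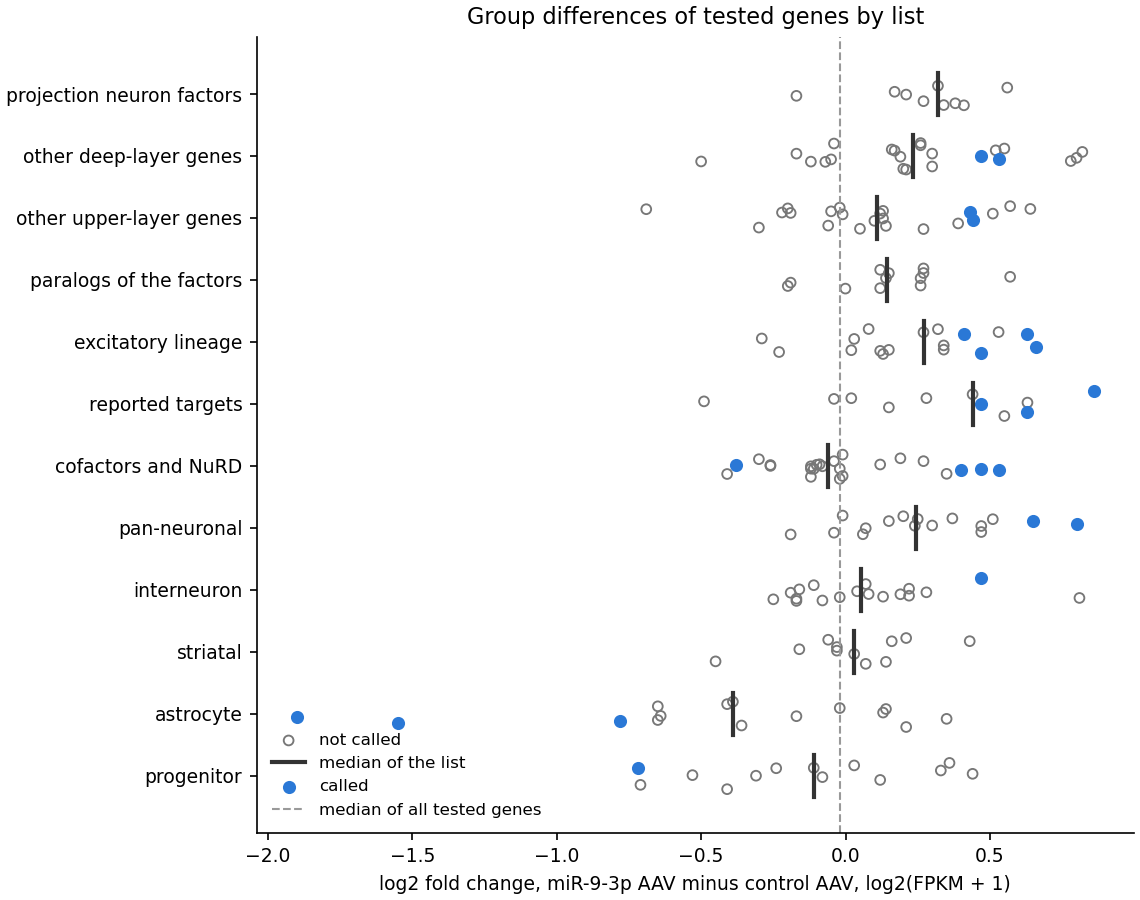
Log2 fold change, miR-9-3p AAV minus control AAV on the log2(FPKM + 1) scale, of each tested gene by list, filled where the limma adjusted p is under 0.05, with the list median as a bar and the median of all tested genes (-0.02) dashed. The 9 factors have a median of 0.32 with none filled, and astrocyte markers a median of -0.39 with 3 filled below 0.

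The cultures were checked against markers of the cells they could hold. Neurod6, a factor of excitatory forebrain neurons, was at 38.0 to 45.1 FPKM with miR-9-3p and at 26.0 to 39.7 FPKM with the control. Of 16 cerebellar and hindbrain markers 11 were under 1 FPKM in every library, with the granule cell gene Gabra6 at 0, and 10 of 15 thalamic, hypothalamic and midbrain markers were under 1 FPKM. In the hindbrain list Zic1, also a factor of meninges and septum, was higher (log2 fold change 0.55, adjusted p = 0.0472), beside Zic2 (0.27) and Calb1 (0.13). Nkx2-1 (log2 fold change -0.90), Foxa1 (-0.65) and Foxa2 (-0.77), of the midbrain and hypothalamic list, are also lung genes, and each was highest in control library 3. Tcf7l2 (0.15) completes the tested genes of that list.

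Other neurons of the forebrain were present and could carry some of these factors. The summed FPKM of the interneuron markers was 433 to 602 in miR-9-3p AAV and 419 to 674 in control AAV, with Sst, Gad1 and Gad2 highest (log2 fold changes -0.11, -0.08 and 0.04), and of 18 tested only Reln was called. Striatal markers summed to 76.8 to 98.1 FPKM with miR-9-3p and 78.7 to 103 FPKM with the control, with 0 of 11 called by limma (2 at an unadjusted p under 0.05) and 0 by voom, and a median of 0.03. Log2 fold changes were -0.45 for Penk, 0.16 for Meis2 and 0.43 for Rgs9. Of 9 tested hippocampal markers 0 were called by limma (2 at an unadjusted p under 0.05) and 0 by voom, with a median of 0.12. Log2 fold changes were 0.63 for Wfs1 and 0.52 for Zbtb20. The share of Bcl11b or Foxp2 RNA that came from striatal neurons or interneurons was not tested.

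The median was above 0 for general neuronal genes and below 0 for markers of glia. Pan-neuronal genes had a median of 0.24, with Dcx (log2 fold change 0.80, adjusted p = 0.0299) and Map2 (0.65, adjusted p = 0.0374) higher of 16, beside Tubb3 (0.47), Gap43 (0.30) and Uchl1 (-0.04). Astrocyte markers (median -0.39) summed to 440 to 508 FPKM with miR-9-3p and 656 to 778 FPKM with the control, and of 15 tested 0 were higher and 3 lower, Slc25a18 (-1.90, adjusted p = 0.017), Gfap (-1.55, adjusted p = 0.017) and Acsbg1 (-0.78, adjusted p = 0.0498). The abundant Aldoc, Atp1b2 and Slc1a3 had log2 fold changes of -0.64, -0.65 and 0.13. Slc1a2 (0.21), Sox9 (0.14) and Ntsr2 (0.35) were also above 0, and the other tested astrocyte markers below 0. The groups did not overlap for 2 astrocyte markers that were higher (18.2% of tested genes) and 9 that were lower (16.7%). Progenitor markers summed to 673 to 680 FPKM with miR-9-3p and 955 to 1103 FPKM with the control, with a median of -0.11, and of 13 tested 0 were higher and 1 lower, Fabp7 (-0.72, adjusted p = 0.0333), the most abundant, beside Vim (-0.53) and Sox2 (-0.11). The proliferation genes Mki67 and Top2a and the matrix gene Tnc of that list had positive log2 fold changes that were not called (0.44, 0.36 and 0.33; adjusted p = 0.1, 0.181 and 0.122). The groups did not overlap for 2 progenitor markers that were higher, Mki67 and Tnc (18.2% of tested genes), and 5 that were lower (16.7%). Oligodendrocyte markers gave 1 higher, Pdgfra (0.84, adjusted p = 0.0204), and 1 lower gene, beside Olig1 (-0.81), Olig2 (-0.73) and Cnp (-0.46). Cspg4 (0.48) and Mog (0.21) were above 0 and not called, and the other tested genes of that list were below 0. Without overlap of the groups, 3 of the 13 tested were higher (Pdgfra, Cspg4 and Mog) and 7 lower.

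The 9 factors together summed to 87.4, 110 and 117 FPKM with miR-9-3p and to 93.3, 83.2 and 64.8 FPKM with the control, so that miR-9-3p library 1 lay below control library 1. The lung markers summed to 1677 to 6948 FPKM with miR-9-3p and 4787 to 23220 FPKM with the control, with 0 of 15 called by limma or voom, 0 at an unadjusted p under 0.05 and a median of -1.48. The highest were Scgb1a1 (-1.62), Sftpc (-1.39) and Sftpb (-1.48), and the lowest p belonged to Cyp2f2 (-1.71, adjusted p = 0.19) and Lamp3 (-1.29, adjusted p = 0.192). Microglia and macrophage markers had a median of -0.64 with 0 of 4 called by limma or voom and 1 at an unadjusted p under 0.05 (Tyrobp -0.50, Cd68 -0.51, C1qa -0.83, C1qb -0.77). The part of astrocyte, progenitor and macrophage RNA in the differences of the 9 factors was not tested.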

How the data were processed

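The deposited table holds FPKM, 1 column per library, per the file headers, and its identifiers are Ensembl mouse genes. The submitters' processing notes name HISAT2, Cufflinks 2.2.1 and the mm10 build without saying what each did. Annotation and strand setting are not given in the sources used here. The authors' FPKM divides by a library total, so RNA of other cells in a library can lower its other values. What that total counts is not known. Reads in matched genes exceeded the recovered depth in miR-9-3p AAV library 2 (17081823 against 16953252). They fell short of it in control AAV library 3 (17054390 against 17745016).

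Symbols, positions and 3′ UTRs came from GENCODE M21 (52135 of 55416 identifiers matched). Low values were whole multiples of a step set by exon length, and 98.03% to 98.14% of values above 0 in a library came out as whole reads within 0.01. Genes reaching 1 FPKM in 3 or more libraries (14229) were tested on log2(FPKM + 1), 3 against 3 libraries, with limma 3.58.1 in R 4.3.3 (empirical Bayes, intensity trend, no covariate) and Benjamini-Hochberg adjustment, and called at an adjusted p under 0.05. This step and the depth recovery were tested on simulated data. Every pair of libraries differed by more than sampling noise (lowest chi-square per degree of freedom 4.77), so no pair was merged as 1 library deposited more than once; whether they are separate cultures was not tested.

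The 9 genes, the gene lists and the alternatives were chosen with earlier results of these data known. Named are all 9 factors, up to 4 called genes of each other list or, with none called, the 2 with the lowest p, every paralog tested, the 3 most abundant genes of each marker list and, for each factor, the 2 genes with the highest Pearson r. The non-overlapping genes of the layer lists, Ntsr1, Slc17a7, Mki67, Top2a, Tnc, Slc1a2, Sox9, Ntsr2, Cspg4 and Mog were added after their values were seen. Some genes that this rule selects are not reported here. Seed matches complement microRNA bases 2 to 8, or bases 2 to 7 followed by A, in 3′ UTRs of at least 30 bases. Alternatives were other pseudocounts, filters, scalings and weights, the replicate number as a block, leaving out libraries, 2 lung terms, removal of the exon length trend, voom on recovered reads, and, added after seeing the data, scaling to pan-neuronal genes. Quality weights used the gene-by-gene method of limma, since its default did not converge.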

Additional observations from a re-analysis of the deposited data

How the results depend on the processing

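Over 20 alternatives, 178 values of the 9 factors were recomputed: 161 kept their direction and their side of the threshold, 9 kept their direction and passed it, and 8 changed sign. Array quality weights, under which 45.3% of all tested genes were called, called 7 factors higher: Bcl11b (0.40), Fezf2 (0.34), Tbr1 (0.34), Cux1 (0.17), Cux2 (0.56), Pou3f2 (0.25) and Neurod2 (0.56). The lung set as a batch term called 1, Pou3f2 (0.38), and leaving out each group's highest lung library called 1, Bcl11b (0.40). Sign changed in the fit with lung level for Fezf2 (-0.31), Cux2 (-0.05) and Neurod2 (-0.004), with scaling to the pan-neuronal genes for Fezf2 (-0.003), Cux1 (-0.10) and Foxp2 (-0.06), and without the exon length trend for Cux1 (-0.08) and Foxp2 (-0.002). Leaving out each library kept every sign, with ranges of 0.30 to 0.51 for Bcl11b, 0.05 to 0.50 for Fezf2, 0.21 to 0.44 for Tbr1, 0.14 to 0.19 for Cux1, 0.21 to 0.52 for Cux2, -0.21 to -0.12 for Rorb, 0.17 to 0.26 for Foxp2, 0.33 to 0.44 for Pou3f2 and 0.31 to 0.77 for Neurod2; the lowest value came without control library 3 for all but Rorb and Foxp2. Under pan-neuronal scaling the sign changes follow from a shift common to all genes. The cause of the other shifts was not tested.

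Counts over all genes (554 higher, 341 lower) depended on the fit. They were 3183 and 3262 with quality weights, 1622 and 1983 with the lung level, 1410 and 1243 with the lung set, 787 and 853 without the highest lung libraries, 358 and 191 without the exon length trend, 109 and 67 with no filter, and 34 and 754 with pan-neuronal scaling. Leaving out each library gave 0 to 459 higher and 0 to 287 lower. The replicate numbers did not pair the libraries (correlations of deviations of same-numbered libraries -0.649, 0.111 and -0.535), and with the number as a block limma called 0 genes in either direction, with 2213 at an unadjusted p under 0.05. For deep-layer genes (2 higher, 0 lower) the counts higher were 12 with quality weights, 5 with the lung level, 7 with the lung set, 5 without the highest lung libraries, 0 to 2 leaving out each library, and 0 with no filter, the block or pan-neuronal scaling; quality weights gave 2 lower. For upper-layer genes (2 higher, 0 lower) the counts higher were 7 with quality weights, 4 without the highest lung libraries, 0 to 2 leaving out each library, and 0 without the exon length trend, with no filter, the block or pan-neuronal scaling, and the counts lower were 4 with quality weights, 2 with the lung level and 1 with pan-neuronal scaling. Of 604 list counts 430 stayed within 1.5 times and 174 moved.

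A factor that missed the threshold is not shown to be equal between the groups, and its interval gives the differences that these 3 libraries a group leave possible. In 8-base matches the miR-9-3p count was 3 factors and the miR-9-5p count 0, and in the shortest 3′ UTRs each was 1. That factor is Pou3f2 for both strands, whose shortest 3′ UTR is also its longest.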
